A study of Mus musculus with 6 samples.

Results

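Interferon-stimulated genes were followed in whole adrenal glands of mice without a working circadian clock. They were taken from a list of 41 symbols, and a gene counted as a member where a probe set of the array named that gene and no other. This gave 39 of 18163 genes named on the array and 63 of 44935 probe sets. Isg15 was left out because its probe set also names other genes, and Ifi44 because none named it alone. All 6 samples came from males aged 3 months of the genotype Per2Brdm1/Cry1-/-, in which Per2 is mutant and Cry1 is deleted, on a C57BL6x129Sv background. They had lived in a light-dark cycle before release into constant darkness. Glands were dissected 46 h or 54 h after lights off, with 3 arrays at each time, called replicates 1, B and C. Values for single arrays are in that order throughout. No other genotype and no mouse given interferon or a virus was analysed here, so the only comparison is between these times.

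Interferons are secreted signals that warn cells of infection. Type I interferons act through the receptor chains Ifnar1 and Ifnar2 and the kinases Jak1 and Tyk2, which bring a complex with Stat2 and Irf9 to a DNA element called the ISRE, built from GAAA repeats. Interferon gamma acts through Ifngr1 and Ifngr2 and mainly at a second element, GAS. The genes they switch on sense viral RNA or DNA, block its replication, and feed peptides to MHC class I, and many are also expressed at a basal level in uninfected tissue.

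No member passed the test across the whole array, but most read lower at 54 h. Taking only the brightest probe set of a gene, 33 of 38 genes tested had a lower mean at 54 h, where 56.7% of all 13780 genes did. The median change was -0.18 on the log2(intensity + 16) scale used for all changes here, against -0.02 over all genes. Every 54 h array lay below every 46 h array for 14 members, where 9.95% of all genes did so, and the reverse order held for 1 member, where 6.33% did so. By limma's moderated test 0 of 54 member probe sets had an adjusted p under 0.05 (Benjamini-Hochberg), where 0.115% of all probe sets did. At an unadjusted p under 0.05 limma gave 13 of 38 members lower and 0 higher, against 6.2% and 4.11% of all genes. Without single arrays the 13 became 10 to 14. The smallest adjusted p of a member was 0.0951, for Usp18, and the sizes were modest. A 2-fold change lay outside the 95% confidence interval for 37 of the 38 genes, and a 1.5-fold change for 26. Over all 54 member probe sets, 45 had a lower mean at 54 h, where 55.6% of all probe sets did. Of the 54, 20 had all 54 h arrays below all 46 h arrays and 1 had the reverse, against 9.05% and 6.48% of all probe sets. At an unadjusted p under 0.05 limma gave 17 lower and 0 higher, against 5.75% and 4.34%.

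**Figure D1:**
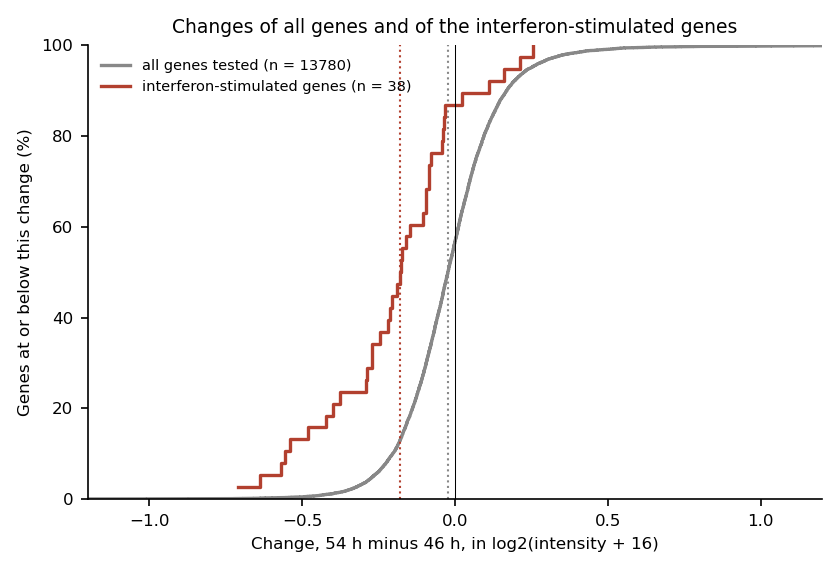
Cumulative share of genes (vertical axis, percent) at or below each change from 46 h to 54 h (horizontal axis, log2(intensity + 16)), for all 13780 genes in grey and the 38 interferon-stimulated genes in red, with dotted lines at the medians. The red curve lies to the left of the grey one up to its upper end, with medians of -0.18 and -0.02.

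The arrays as a whole shared one scale, with log2 medians within 0.07 of each other and a highest value of 17879 units, and 31 of 26961 probe sets tested passed limma. All 7 listed adrenal cortex genes and 5 of 6 medulla genes had a probe set, with means over the 6 arrays of at least 4378 and 6955 units, as fits the labelled tissue. In whole glands, fewer cells of a type and less RNA per cell cannot be told apart. The labels do not say whether the arrays of a time come from separate animals, so p-values reflect no more than the scatter among these arrays, and that scatter may be technical. Time of collection and any difference in handling between the times cannot be told apart.

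The sensors were all lower at 54 h and by similar amounts, with changes of -0.16 to -0.21 for the brightest probe sets of the 4 genes and a median of -0.17. A lower mean was seen for 56.7% of all genes. Ddx58 encodes RIG-I, which binds viral RNA with a 5′ triphosphate. Its brightest probe set read 1321, 1354 and 1290.3 units at 46 h and 1149, 1178 and 1108 units at 54 h. The times did not overlap, and the change was -0.21 ± 0.08 SE (limma unadjusted p = 0.0267, adjusted p = 0.429). A second Ddx58 probe set had -0.12 ± 0.11 SE with overlapping times. The third, under the filter on low values, read 73.5 to 105 units at 46 h and 40.4 to 70.6 units at 54 h, again without overlap. Ifih1, which encodes the long-RNA sensor MDA5, had -0.17 ± 0.12 SE, with overlap. Dhx58 (LGP2), a regulator of both sensors, had -0.16 ± 0.12 SE and -0.15 ± 0.12 SE from its 2 tested probe sets. Only the second, which read 164 to 178 units at 46 h and 148 to 158 units at 54 h, kept the times apart. Zbp1, a sensor of Z-form nucleic acid, had -0.18 ± 0.18 SE, at 189 ± 30.3 and 167 ± 37.2 units (SD, n = 3 each).

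Among the transcription factors Irf7 stood apart from the other 4. Irf7, which drives the amplifying phase of type I interferon production and is itself interferon-induced, read 744, 532 and 688 units at 46 h and 422, 427 and 386 units at 54 h. The 54 h arrays lay close together and all below the lowest 46 h array, replicate B. The change was -0.64 ± 0.13 SE, a ratio of 1.55 (limma unadjusted p = 0.000957, adjusted p = 0.14). Irf9, the DNA-binding part of the ISGF3 complex, read 784, 726 and 713 units at 46 h and 600.0, 585 and 650.2 units at 54 h. Its times did not overlap either, with -0.27 ± 0.10 SE (limma unadjusted p = 0.0196, adjusted p = 0.388). Stat2, its partner, gave opposite signs from 2 probe sets of similar precision, -0.09 ± 0.13 SE and 0.14 ± 0.13 SE. Irf1, the factor most directly induced by interferon gamma, had -0.08 ± 0.09 SE. Irf8, which is expressed mainly in macrophages and dendritic and B cells, had 0.21 ± 0.11 SE from its brighter probe set and -0.08 ± 0.11 SE from the other. The median of the 5 factors was -0.09, and without 46 h replicate B it was -0.16.

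**Figure D2:**
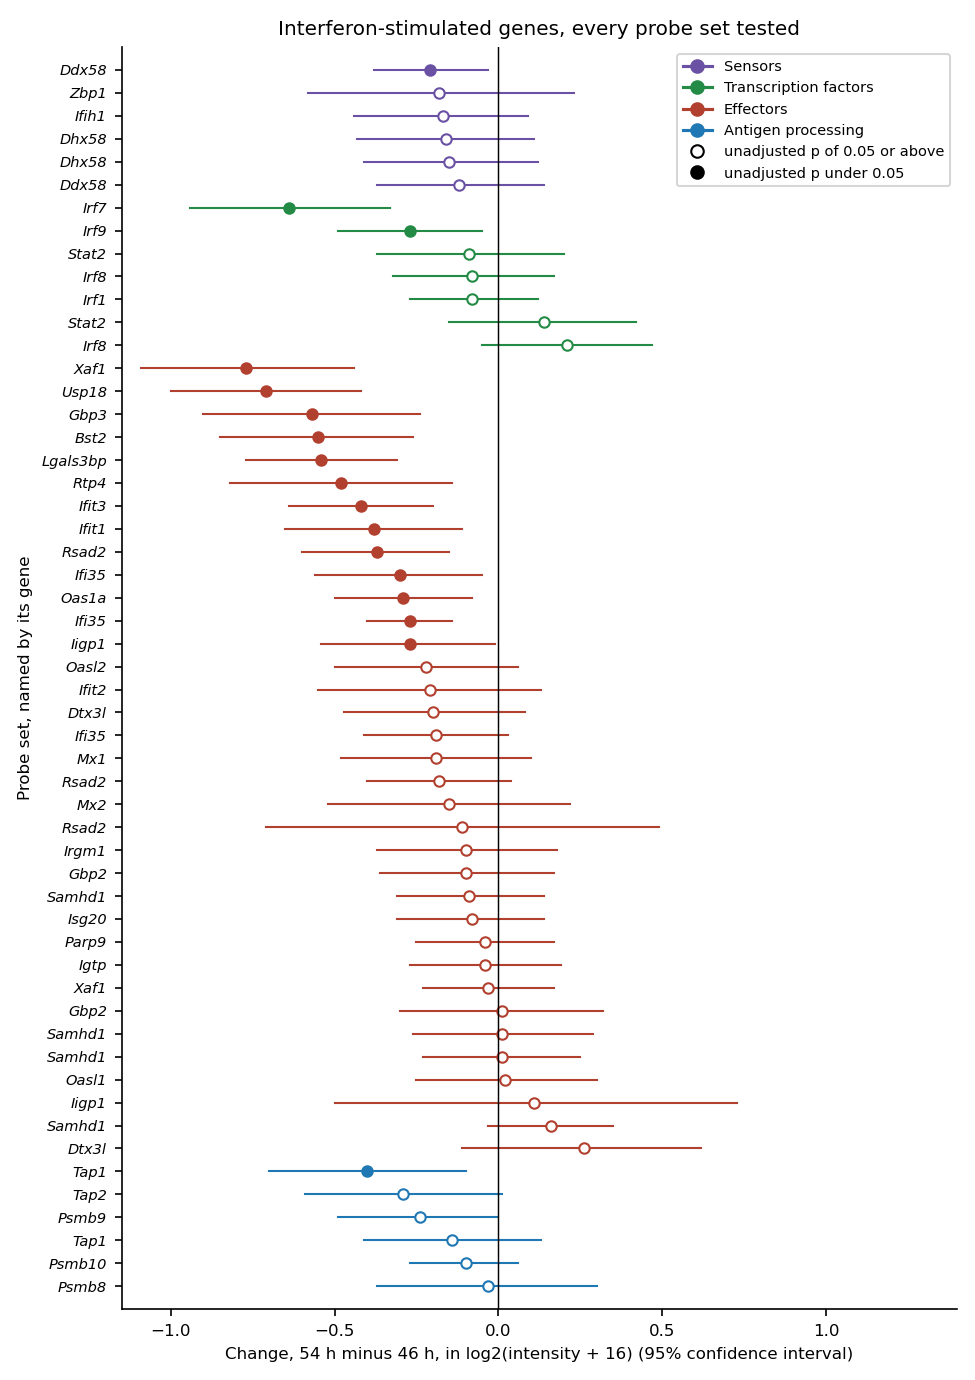
Change from 46 h to 54 h (horizontal axis, log2(intensity + 16), with the 95% confidence interval as a line) for each of the 54 probe sets tested, 1 row each, coloured by function and filled where the unadjusted p was under 0.05. All 17 filled points lie left of 0, from -0.21 for Ddx58 to -0.77 for Xaf1.

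Of the 24 effector genes tested, 20 had a lower mean at 54 h, where 56.7% of all genes did. At an unadjusted limma p under 0.05, 9 of the 24 were lower, where 6.2% of all genes were, and 0 passed after adjustment. The lowest change of a brightest probe set was that of Usp18, the protease that removes ISG15 from proteins and dampens signalling at Ifnar2. It read 404, 312 and 403 units at 46 h and 222, 228 and 211 units at 54 h. The 54 h arrays were within a narrow band below all of the 46 h arrays. The change was -0.71 ± 0.13 SE, a ratio of 1.64 (limma unadjusted p = 0.000342, adjusted p = 0.0951). The 2 members that add ADP-ribose and ubiquitin as a pair, Parp9 and Dtx3l, had smaller changes, and the difference from Usp18 was not tested. Parp9 had -0.04 ± 0.09 SE. Dtx3l gave 0.26 ± 0.16 SE from its brighter probe set, which varied within a time by an SD of 0.27, and -0.20 ± 0.12 SE from the other.

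Lgals3bp, a secreted glycoprotein that binds galectin 3, read 2767, 2143 and 2788 units at 46 h and 1756, 1742 and 1748 units at 54 h. The 54 h arrays were nearly equal, with an SD of 6.88 units, while 46 h replicate B lay between them and the other 46 h arrays. The change was -0.54 ± 0.10 SE (limma unadjusted p = 0.000454, adjusted p = 0.106), and without 46 h replicate B it was -0.66 and passed limma (adjusted p = 0.0463). With any other array left out it did not pass, at limma adjusted p-values of 0.106 to 0.468. Rtp4, an interferon-induced chaperone of membrane receptors that also binds RNA, read 835, 612 and 844 units at 46 h and 628, 482 and 511 units at 54 h. Its replicate B at 46 h fell among the 54 h values, so the times overlapped, with -0.48 ± 0.15 SE (limma unadjusted p = 0.0106, adjusted p = 0.333). Ifi35, which forms a complex with Nmi, had 3 probe sets with changes of -0.30, -0.27 and -0.19, each without overlap between the times. Its brightest, at 3721 ± 135 and 3082 ± 119.5 units (SD, n = 3 each), had an unadjusted p of 0.00121 in limma (adjusted p = 0.156). Cxcl10, a chemokine that attracts T cells, stayed under the filter at 112 to 121 units at 46 h and 126 to 150.3 units at 54 h. It was the one member whose only probe set was not tested, and those values do not overlap in the upward direction.

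The effectors grouped here as limiting viral replication or budding numbered 12, of which 10 had a lower mean at 54 h. At an unadjusted limma p under 0.05, 4 were lower. Over all genes these shares were 56.7% and 6.2%. Bst2 (tetherin), which holds budding virions at the cell surface, read 778, 685 and 877 units at 46 h and 462, 602 and 516 units at 54 h. All 54 h arrays were below all 46 h arrays, with a change of -0.55 ± 0.13 SE (limma unadjusted p = 0.002, adjusted p = 0.197). Ifit3 and Ifit1 belong to a family that binds foreign RNA caps and blocks translation. Ifit3 read 1116, 1121 and 1163 units at 46 h and 945, 765 and 826 units at 54 h. Ifit1 read 593, 470.2 and 538 units at 46 h and 445, 385 and 389 units at 54 h. Neither overlapped between times, with -0.42 ± 0.10 SE and -0.38 ± 0.12 SE (limma unadjusted p = 0.00198 and 0.0114, adjusted p = 0.197 and 0.334). Ifit2 did overlap, at 309 ± 54.1 and 263 ± 33.3 units (SD, n = 3 each) and -0.21 ± 0.15 SE.

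Oas1a makes the 2′-5′ oligoadenylate that activates RNase L. It read 688, 718 and 704 units at 46 h and 551, 598 and 567 units at 54 h, tight groups with no overlap and -0.29 ± 0.09 SE (limma unadjusted p = 0.0109, adjusted p = 0.333). The related Oasl2 and Oasl1 had -0.22 ± 0.12 SE and 0.02 ± 0.12 SE, both with overlap. Rsad2 (viperin), which makes a chain-terminating nucleotide, had 3 probe sets with changes of -0.37, -0.18 and -0.11. The dynamin-like GTPases Mx1 and Mx2 had -0.19 ± 0.13 SE and -0.15 ± 0.16 SE from 207 and 215 units at 46 h. Many inbred laboratory strains carry a defective Mx1 gene, and whether these mice do was not given. The exonuclease Isg20 had -0.08 ± 0.10 SE. Samhd1, which depletes deoxynucleotides, went the other way in its brightest probe set, with 1089, 1019 and 1172 units at 46 h and 1239.9, 1197 and 1227 units at 54 h. It was the only one of the 38 whose 54 h arrays lay above all of its 46 h arrays, with 0.16 ± 0.09 SE, while its other 3 tested probe sets had -0.09, 0.01 and 0.01. Ifit, Oas, Mx and Gbp genes have close relatives in the mouse, and which copies a probe set reads was not tested.

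Of the 5 interferon-inducible GTPases, which attack the vacuoles of intracellular microbes, 4 had a lower mean at 54 h and 1 had an unadjusted limma p under 0.05. Over all genes 56.7% had a lower mean and 6.2% were lower at that p. Gbp3 read 689, 516 and 665 units at 46 h and 461, 430.0 and 350.3 units at 54 h. Its times did not overlap, and the change was -0.57 ± 0.15 SE (limma unadjusted p = 0.00326, adjusted p = 0.227). Gbp2 had -0.10 ± 0.12 SE and 0.01 ± 0.14 SE from its 2 probe sets, Igtp -0.04 ± 0.10 SE and Irgm1 -0.10 ± 0.12 SE, each with overlap. Iigp1 gave -0.27 ± 0.12 SE from 1 probe set, without overlap, and 0.11 ± 0.27 SE from the brighter one.

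**Figure D3:**
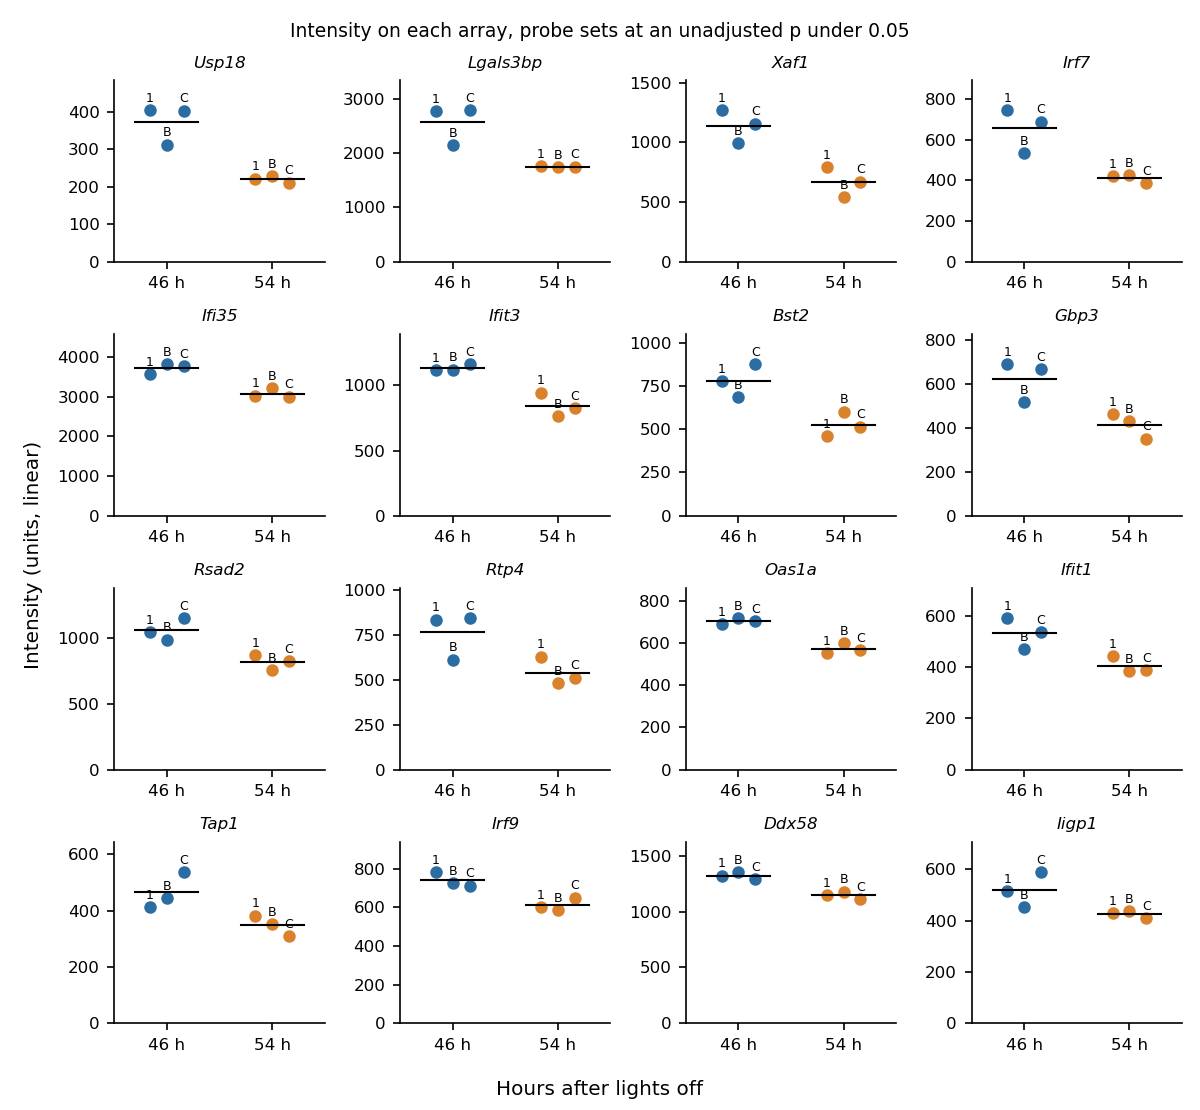
Intensity (vertical axis, linear units from 0) on each array at 46 h (blue) and 54 h (orange) for the 16 genes with a probe set at an unadjusted p under 0.05, each drawn from its probe set with the smallest p. Letters and digits name the replicate and lines mark the means; the times overlap only for Rtp4, where 46 h replicate B reads 612 units and 54 h replicate 1 reads 628 units.

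Of the 39 members, 30 had a promoter in the RefSeq table of build GRCm38.p6, as windows from 250 bases before to 50 bases after a start site. The core of the ISRE, taken as GAAA, any 2 bases and GAAA on either strand, occurred in 13 of these 30 genes (43.3%), against 3.99% of the 27025 genes in the table. The palindromic GAS core, TTCNNNGAA, occurred in 10 of the 30 (33.3%), against 9.55%. Copies may overlap one another, and a match is a run of letters, not a shown binding site. Among the 12 tested genes with the ISRE core the median change was -0.20, with all 12 lower at 54 h, where 56.7% of all genes were. Among the 17 tested genes without it in the window the median was -0.10 and 13 were lower. Irf7, Irf9, Lgals3bp and Tap1 were among those 17, as was Xaf1, read there from its brightest probe set with -0.03. Usp18 and Rtp4 were among the members without a promoter in the table, so neither group holds them. All 54 h arrays lay below all 46 h arrays for 6 of the 12 and for 7 of the 17, where 9.95% of all genes did so. The split by the GAS core ran the other way, with a median of -0.08 and 8 of 10 lower with it, and -0.21 and 17 of 19 lower without it. None of these splits was tested. The stretches that hold the ISRE core are shown for 6 members with a probe set without overlap between times and, after them, 3 GTPase genes with changes of -0.04 to -0.10. Capitals mark that core or its reverse complement, and each stretch lies upstream of the window's start site and is written 5′ to 3′ on the gene's strand. For Ifit3, Gbp3 and Oas1a the window's start site is not the annotated start of the gene.
Ifit1, chr19:34640765-34640833, plus strand: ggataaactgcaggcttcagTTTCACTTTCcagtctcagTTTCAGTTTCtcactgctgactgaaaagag
Ifit3, chr19:34583353-34583436, plus strand: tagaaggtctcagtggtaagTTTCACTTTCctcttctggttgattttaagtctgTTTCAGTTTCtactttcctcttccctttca
Bst2, chr8:71537567-71537622, minus strand: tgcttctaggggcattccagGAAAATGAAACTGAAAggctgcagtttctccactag
Gbp3, chr3:142559979-142560034, plus strand: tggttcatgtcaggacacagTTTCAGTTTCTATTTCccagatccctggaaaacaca
Oas1a, chr5:120907526-120907565, minus strand: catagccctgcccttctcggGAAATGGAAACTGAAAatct
Rsad2, chr12:26456543-26456592, minus strand: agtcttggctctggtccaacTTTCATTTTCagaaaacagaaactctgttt
Irgm1, chr11:48871421-48871470, minus strand: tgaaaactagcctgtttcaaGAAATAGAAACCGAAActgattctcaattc
Gbp2, chr3:142620584-142620633, plus strand: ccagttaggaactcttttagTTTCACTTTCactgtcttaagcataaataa
Igtp, chr11:58199502-58199551, plus strand: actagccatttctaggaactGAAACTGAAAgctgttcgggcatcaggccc

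The stretches of Ifit1 and Ifit3 carry 2 separate copies each, and those of Bst2, Gbp3 and Oas1a carry 2 that overlap. Rsad2 carries 1 copy. Ddx58, also without overlap between times in its brightest probe set, has 1 copy just past the start and is not shown. Irgm1 carries 2 overlapping copies with a change of -0.10, and Gbp2 and Igtp carry 1 each.

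Antigen processing genes cut proteins into peptides and move them into the endoplasmic reticulum for MHC class I. All 5 had a lower mean at 54 h, where 56.7% of all genes did. The median of the 5 was -0.24, and without 54 h replicate 1 it was -0.16. Tap1, a subunit of the peptide transporter, read 412, 445 and 538 units at 46 h and 383, 353 and 309.8 units at 54 h. The times did not overlap, with -0.40 ± 0.13 SE (limma unadjusted p = 0.0144, adjusted p = 0.349). Its partner Tap2 had -0.29 ± 0.13 SE, and 54 h replicate B, at 706 units, lay above the lowest 46 h array, at 691 units.

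The immunoproteasome subunits replace constitutive subunits under interferon. All 3 had intervals that overlapped one another, and differences between them were not tested. Psmb9 read 504, 508 and 511 units at 46 h and 377, 446 and 460.0 units at 54 h. The 46 h arrays were nearly equal and all above the 54 h arrays, with -0.24 ± 0.11 SE (limma unadjusted p = 0.052, adjusted p = 0.499). Psmb10 also kept the times apart, at 1987 ± 114 and 1845 ± 55 units (SD, n = 3 each), with -0.10 ± 0.07 SE. Psmb8 overlapped, with -0.03 ± 0.15 SE, and 46 h replicate B, at 466 units, was its lowest array. The constitutive subunits Psmb6 and Psmb7 had -0.02 ± 0.06 SE and -0.04 ± 0.05 SE.

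**Figure D4:**
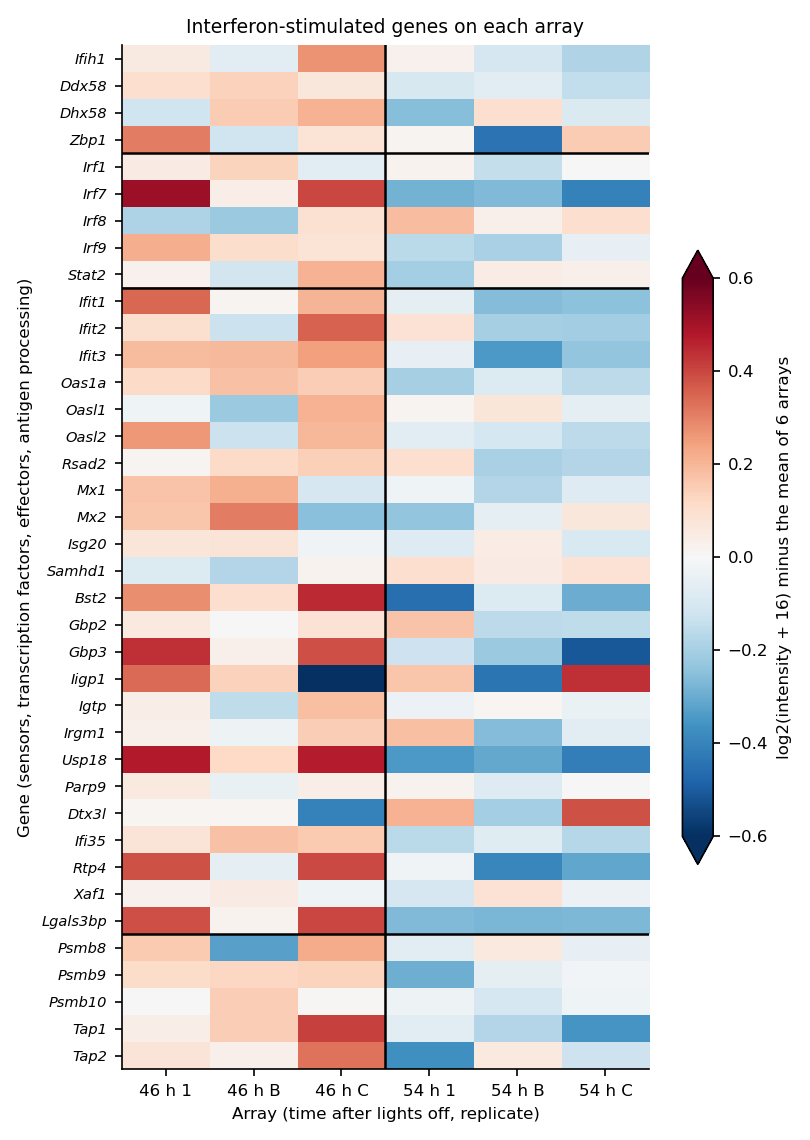
Deviation of each of the 38 genes from its own mean over the 6 arrays (colour, log2(intensity + 16)), with arrays as columns and genes as rows grouped by function. The 46 h columns are mostly red and the 54 h columns mostly blue, with mean deviations of 0.14, 0.03 and 0.14 for 46 h replicates 1, B and C and -0.07, -0.13 and -0.10 for 54 h.

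The members did not all follow the same array. Counting the highest reading of each of the 38 genes, 46 h replicate C held it for 15 genes, 46 h replicates 1 and B for 8 each, and the 54 h arrays for 4, 1 and 2 (replicates 1, B and C). The lowest reading fell on 54 h replicates B and C for 13 and 10 genes, on 54 h replicate 1 for 7, on 46 h replicates B and C for 5 and 3, and on 46 h replicate 1 for 0. With any 1 array left out, the median change of the 38 genes stayed between -0.21 and -0.16.

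Agreement between probe sets of a gene was limited. Among the 12 members with more than 1 tested probe set, 6 gave the same sign throughout, lower at 54 h in each case, and 6 gave opposite signs. The 9 member probe sets under the filter were not tested and went both ways. Their mean changes were -0.51 for Ddx58, -0.22 for Zbp1, -0.02 for Dhx58, and 0.11 and -0.01 for Tap1. Those of Psmb8, Rtp4, Samhd1 and Cxcl10 had 0.39, 0.28, 0.18 and 0.18. Xaf1, which antagonises an inhibitor of apoptosis, showed the widest gap between tested probe sets. One of its probe sets read 1269, 993 and 1156 units at 46 h and 790.2, 542 and 671 units at 54 h, with -0.77 ± 0.15 SE (limma unadjusted p = 0.000464, adjusted p = 0.107). That was the lowest change of any member probe set, and the times were well apart. The other read 1007, 1024 and 969 units at 46 h and 921, 1049 and 965 units at 54 h, with -0.03 ± 0.09 SE and full overlap. The second is slightly brighter, so a reading from the brightest probe set alone misses the first. With the mean over its probe sets Xaf1 had -0.40 ± 0.08 SE, and 15 members instead of 13 had an unadjusted limma p under 0.05, all lower. The share of all genes at that p is not given for this setting.

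Iigp1, Rsad2 and Dtx3l each had 1 probe set that followed neither the time nor the gene's other probe sets. That of Iigp1 read 929, 807 and 461 units at 46 h and 822, 536 and 995 units at 54 h. That of Rsad2 read 827, 1288 and 564 units at 46 h and 810.5, 610.3 and 960.2 units at 54 h, and that of Dtx3l 1239, 1241 and 925, then 1422, 1066 and 1606 units. All 3 were lowest on 46 h replicate C and, within 54 h, on replicate B, and highest within 54 h on replicate C. Their SDs within a time were 0.49, 0.47 and 0.27 on the log2 scale, where the median of the member probe sets was 0.14. The other tested probe sets of these genes did not show this order: that of Iigp1 read 516, 453 and 589.7 units at 46 h and 429.7, 436 and 409.9 units at 54 h.

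**Figure D5:**
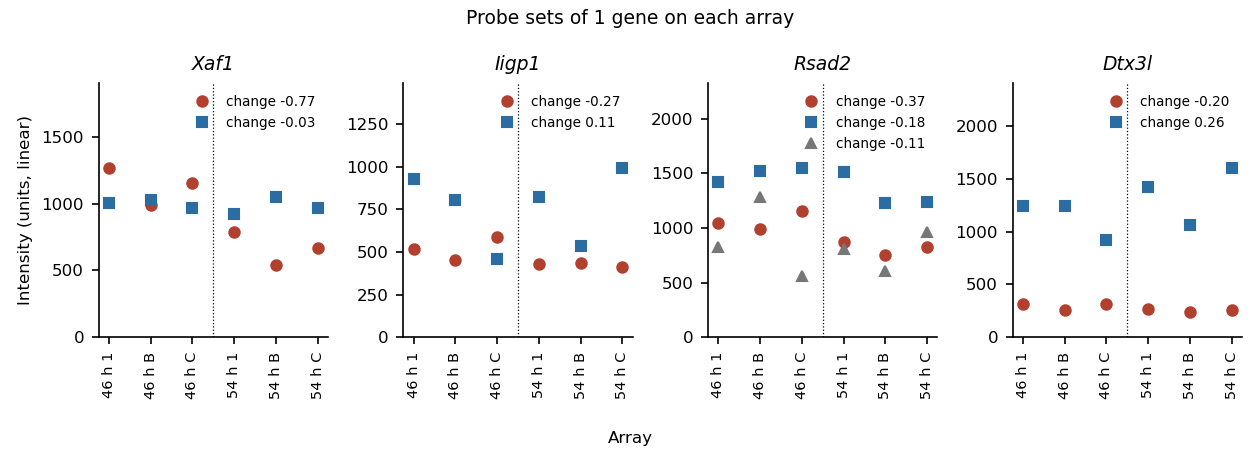
Intensity (vertical axis, linear units from 0) of each tested probe set of Xaf1, Iigp1, Rsad2 and Dtx3l on the 6 arrays (horizontal axis), with a symbol per probe set and its change on the log2(intensity + 16) scale in the key. The Xaf1 probe sets part at 54 h (-0.77 and -0.03), while 1 probe set each of Iigp1, Rsad2 and Dtx3l dips on 46 h replicate C and 54 h replicate B; heights of different probe sets are not comparable.

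Upstream of the members, the interferon genes themselves were dim. Of 5 with a probe set 2 passed the filter, Ifna1 with -0.15 ± 0.12 SE and Ifnb1 with -0.06 ± 0.25 SE, and Ifng read 4.9 to 28.9 units over the 6 arrays. Of 10 receptor and signalling genes 9 had a lower mean at 54 h, where 56.7% of all genes did, with a median of -0.08. At an unadjusted limma p under 0.05, where 6.2% of all genes were lower, was 1 gene. That was the kinase Jak1, with 3786, 3718 and 3953 units at 46 h and 2835, 3493 and 3153 units at 54 h, no overlap and -0.28 ± 0.08 SE (limma unadjusted p = 0.00593, adjusted p = 0.279). The receptor chains Ifnar1 and Ifngr1 had -0.10 ± 0.11 SE and 0.20 ± 0.12 SE.

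Of 13 genes that lead from sensors to interferon production 9 had a lower mean, with a median of -0.09, where 56.7% of all genes had one. At an unadjusted limma p under 0.05 were 2 lower and 1 higher, against 6.2% and 4.11% of all genes. The higher one was Mavs, the mitochondrial adaptor that RIG-I and MDA5 act through, with 1370.2, 1381 and 1564 units at 46 h and 2084, 1701 and 1848 units at 54 h. Its times did not overlap, with 0.38 ± 0.10 SE (limma unadjusted p = 0.00325, adjusted p = 0.227), the opposite sign to both sensors. Irf3, the factor that the adaptor activates, had -0.29 ± 0.09 SE (limma unadjusted p = 0.00807, adjusted p = 0.309).

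Of 9 tested genes of MHC class I presentation 7 had a lower mean, with a median of -0.04, and 1 had an unadjusted limma p under 0.05, shares to be read against the same background. H2-D1 and H2-K1, the classical class I chains, had -0.19 ± 0.05 SE and -0.12 ± 0.05 SE (limma unadjusted p = 0.00456 and 0.0567, adjusted p = 0.26 and 0.51). They are near-identical in parts, so their probe sets may read both. B2m, their light chain, had -0.04 ± 0.03 SE and Tapbp (tapasin), which loads the peptide, 0.04 ± 0.06 SE.

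Macrophages express many of the members. Of 14 macrophage markers tested 10 had a lower mean at 54 h, where 56.7% of all genes did. At an unadjusted limma p under 0.05, 3 of the markers were lower and 0 higher, against 6.2% and 4.11% of all genes. The median of the markers was -0.15, and 0 passed after adjustment. Their summed intensity, in which bright probe sets weigh most, was 23155 to 24559 units at 46 h and 21157 to 22444 units at 54 h, without overlap. Taken singly, 3 of the 14 had all 54 h arrays below all 46 h arrays and 1 had the reverse, against 9.95% and 6.33% of all genes. Lyz2 had -0.37 ± 0.06 SE, C1qc -0.38 ± 0.10 SE and C1qb -0.14 ± 0.05 SE, while Adgre1 had 0.01 ± 0.08 SE, C1qa 0.02 ± 0.10 SE, Csf1r 0.03 ± 0.11 SE and Cd14 0.20 ± 0.09 SE. MHC class II genes were lower in 5 of 5, where 56.7% of all genes were, with a median of -0.11. Of these 5, 3 were lower at an unadjusted limma p under 0.05, against 6.2% of all genes, and 0 passed after adjustment. Their sums were 29459 to 31319 units at 46 h and 27631 to 28524 units at 54 h. Of the T and NK cell markers 6 of 10 passed the filter, 3 lower and 3 higher. The sums were 2135 to 3116 units at 46 h and 2517 to 2967 units at 54 h. B cell markers summed to 2608 to 2721 and 2493 to 2574 units, with 3 of 5 past the filter. Dendritic cell markers summed to 1249 to 1296 and 1245 to 1327 units, with 4 of 5 past the filter. Neutrophil markers summed to 803 to 1002 and 831 to 957 units, with 2 of 6 past it, and endothelial markers to 14361 to 16214 and 13736 to 14573 units.

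Liver genes read the other way, with 8 of 8 tested higher at 54 h, where 5968 of all 13780 genes were higher. The median change of the liver genes was 1.06. At an unadjusted limma p under 0.05 were 7, where 4.11% of all genes were higher, and 1 passed adjustment. The liver genes summed to 4202 to 6629 and 9080.2 to 13971 units. Adipose genes summed to 22368 to 28295 and 24290.4 to 29619.9 units, with a median change of 0.56. Of the 5 tested, Cidea, Lep and Ucp1 were higher at an unadjusted limma p under 0.05, each without overlap, with 0.67, 0.59 and 0.56. Adipoq and Fabp4, the others tested, had -0.11 ± 0.11 SE and -0.06 ± 0.07 SE, both with overlap. Red cell genes summed to 1245 to 1684 and 1747 to 2199 units, and Hbb-b2 rose by 1.04 ± 0.12 SE (limma adjusted p = 0.0288). Alas2 had 0.54 ± 0.17 SE, while Hba-a1 went the other way with -0.30 ± 0.30 SE and overlap. No gene on these lists read 0 on any array. The part of these other cells and tissues in the readings of the interferon-stimulated genes was not tested.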

How the data were processed

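RNA from whole adrenal glands was hybridised to 1 Affymetrix mouse array per sample, 3 at each of 2 times. The intensity values are those the authors deposited, as linear values for every probe set. How probes were summarised, corrected for background and normalised was not given in the sources used here. Affymetrix controls (64), 1 probe set without values and 1 with a damaged value were left out, which left 44935. The platform's annotation named exactly 1 gene for 34848 of them, and the RefSeq table of GRCm38.p6 changed 0 symbols. Values were taken as log2(intensity + 16), which understates changes of dim probe sets. Probe sets with a mean log2 value above the 40th percentile, about 139 units, were kept, which left 26961, 54 of the 63 member probe sets among them. The change from 46 h to 54 h was fitted with limma 3.58.1 in R 4.3.3, with eBayes and its intensity trend. Two-sided p-values were adjusted by Benjamini-Hochberg across those 26961 and called at 0.05. With 3 arrays a time the smallest exact permutation p is 0.1. Every member was named, and of other pathway genes those with the smallest p in each list with a few fixed ones. Members and lists were chosen with earlier results of these data known, so no list was tested as a set. Other normalizations, filters, offsets, variance models, a replicate block and leaving out each array were run as alternatives. The fit was tested on simulated data. Tables and plots used Python 3.11.15 and matplotlib 3.10.9.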

Additional observations from a re-analysis of the deposited data

How the results depend on the processing

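Under the alternatives run, 28 to 34 member genes had a lower mean at 54 h (28 of 33 with a filter at the 60th percentile, which tests fewer genes), and their median change ran from -0.21 to -0.15. Of all genes, 49% had a lower mean with arrays centred on medians, 51.8% with quantile normalization and 59.2% without 46 h replicate B, against 56.7% in the main setting. Single members near 0 changed sign with 1 array left out: Psmb8, Igtp, Irgm1 and Xaf1 read up to 0.07, 0.04, 0.01 and 0.01, and Oasl1 and Iigp1 read down to -0.08 and -0.18. Of the results compared with the main setting, 154 values stayed close and 22 moved. Close meant a count of similar size, or a median that moved by less than the scatter among arrays of a time. Leaving out the intensity trend, robust eBayes and the replicate block cannot alter a mean change. The counts of lower genes and the medians were therefore fixed in advance under these. All probe sets past the threshold numbered 47 with quantile normalization, 50 with arrays centred on medians, 48 with a filter at the 60th percentile, 3 without an intensity trend, 3466 with array weights and 61 with robust eBayes, against 31. With single arrays left out they numbered 2 to 66. Member probe sets past it numbered 19 with array weights, 1 with the replicate letter as a block (Xaf1, adjusted p = 0.0491), 0 to 1 with single arrays left out (Lgals3bp without 46 h replicate B, Xaf1 without 54 h replicate 1, adjusted p = 0.049), and 0 under the other 8 alternatives. Whether the letters pair the samples cannot be settled from 3 arrays a time. Deviations of same-letter arrays correlated at -0.0602, -0.405 and -0.487 for 1, B and C, and no array correlated best with its own letter. Across letters, 46 h B with 54 h C gave 0.46 and 46 h C with 54 h B gave 0.383, and what the letters mark was not given. Members at an unadjusted limma p under 0.05 in the higher direction numbered 2 with quantile normalization, 1 with centred arrays, 3 with array weights and 0 to 2 with single arrays left out, against 0. The share of all genes at that p under these alternatives is not given here, so the counts have no background. The medians by function with single arrays left out ran from -0.16 to -0.09 for the transcription factors and from -0.30 to -0.16 for antigen processing. The cause of these shifts was not tested. With 3 arrays a time, and 9 member probe sets under the filter, small changes of dim members could not be resolved.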

Other observations

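The order of arrays seen in 1 probe set each of Iigp1, Rsad2 and Dtx3l also occurred beyond the members, which was looked at after these values were seen. Of the 1348 probe sets with the largest SD within a time (the top 5 percent), 611 (45.3%) were lowest on 46 h replicate C among the 46 h arrays and on 54 h replicate B among the 54 h arrays, where 14% of all 26961 tested probe sets were. Among the members, the probe sets of Irf9, Irf1 and Mx1 were lowest on the same arrays, with SDs within a time of 0.07, 0.10 and 0.13. So were those of the macrophage marker Csf1r and the red cell gene Hba-a1. Socs3, a feedback inhibitor of cytokine signalling, read 233, 364 and 129 units at 46 h (replicates 1, B and C) and 181, 139 and 289 units at 54 h, the same order. Ncr1, an NK cell receptor, read 342, 354 and 110.3 units at 46 h, with the same low array, but 214, 343 and 310.4 units at 54 h, where replicate 1 was lowest.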
